A study of Homo sapiens with 54 samples.

Results

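The EGF receptor family was followed through 10 genes, picked by symbol from the 50037 rows of the deposited expression table. They are the ligand genes AREG, EREG, HBEGF, TGFA and BTC, the receptor genes EGFR, ERBB2 and ERBB3, and the inhibitor genes ERRFI1 and LRIG1. Bulk RNA was sequenced from HCT116, a human colon cancer line, and HepG2, a human liver cancer line. The labels also call HepG2 a liver cancer stem cell. Each line had a negative control (NC) given the same volume of complete medium, and cells given IL-6 (50 ng/mL), IL-10 (50 ng/mL, a dose stated only in the series text), TNF-α (100 ng/mL) or Torin1 (1 µM), an inhibitor of the kinase mTOR, for 3 h or 6 h. The 18 groups had 3 libraries each, 54 in all, so each line had 27. No time is given for NC, so a difference from NC and a difference in time in culture cannot be told apart. The series text calls the replicates biological without naming separate cultures. P-values therefore speak only for the spread among libraries within groups of 3, pooled over all groups of a fit, and that spread may be technical.

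Ligands of this family are made as membrane-bound precursors, and proteases of the ADAM family cut them free to bind receptors on the same or neighbouring cells. Bound receptors pair, phosphorylate each other and signal through the RAS-ERK and PI3K-AKT-mTOR pathways, ERBB2 having no known ligand of its own and ERBB3 a weak kinase that signals through its partners. ERRFI1 (also called MIG6) binds the active receptor kinase and blocks it, and LRIG1 is a membrane protein that lowers receptor levels, so that both act as brakes.

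In GRCh38.p14, as RefSeq annotates it, 3 of the ligand genes share one stretch of chromosome 4. EREG lies on the plus strand at chr4:74365145-74388749 and AREG on the same strand at chr4:74445136-74455005, with a gap of 56.4 kb. BTC follows on the minus strand at chr4:74744759-74794523, 289.8 kb beyond AREG. HBEGF is at chr5:140332843-140346603 and TGFA at chr2:70447284-70553826, both on the minus strand. EGFR (chr7:55019017-55211628, plus strand) overlaps the antisense gene EGFR-AS1, and reads of the pair cannot be told apart if the counting ignored strand, on which the sources used here say nothing. EGFR-AS1 has an entry of its own, with 280 to 548 reads (1.77 to 3.35 FPKM) in HepG2 libraries and 4 to 33 reads (0.0319 to 0.225 FPKM) in HCT116 libraries. ERBB2 is at chr17:39688094-39728658 on the plus strand, ERRFI1 at chr1:8011727-8026309 and LRIG1 at chr3:66378797-66501121 on the minus strand, and ERBB3 at chr12:56080108-56103505.

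The 250 bases before the start of the 4 ligand genes with the most changes in HCT116 are printed. AREG and EREG, neighbours in the genome, rose in the same 3 h groups of that line, and HBEGF rose in those groups too. EREG, HBEGF and TGFA were each highest with TNF-α. All are written 5′ to 3′ along the gene's strand, from RefSeq (GRCh38.p14). Capitals mark matches to a cAMP response element (TGACGTCA) or its core (TGACG), to a TATA box (TATAAA) or, in TGFA, to a kB site, the recognition motif of NF-kB.
AREG promoter (chr4:74444886-74445135, + strand): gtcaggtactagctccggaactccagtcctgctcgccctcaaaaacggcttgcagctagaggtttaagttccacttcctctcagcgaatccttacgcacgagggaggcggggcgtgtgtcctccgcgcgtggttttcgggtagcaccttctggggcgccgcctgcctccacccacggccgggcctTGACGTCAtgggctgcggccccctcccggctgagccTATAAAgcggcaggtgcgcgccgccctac
EREG promoter (chr4:74364895-74365144, + strand): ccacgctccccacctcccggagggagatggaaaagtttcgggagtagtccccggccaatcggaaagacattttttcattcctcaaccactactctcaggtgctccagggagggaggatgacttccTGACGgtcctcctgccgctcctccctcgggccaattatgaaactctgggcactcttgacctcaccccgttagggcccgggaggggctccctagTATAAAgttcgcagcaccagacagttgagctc
HBEGF promoter (chr5:140346604-140346853, - strand): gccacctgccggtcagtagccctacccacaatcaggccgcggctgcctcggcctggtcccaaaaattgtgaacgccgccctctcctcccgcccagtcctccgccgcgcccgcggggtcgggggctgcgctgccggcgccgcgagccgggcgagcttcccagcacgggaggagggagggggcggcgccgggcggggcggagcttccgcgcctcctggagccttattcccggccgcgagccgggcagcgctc
TGFA promoter (chr2:70553827-70554076, - strand): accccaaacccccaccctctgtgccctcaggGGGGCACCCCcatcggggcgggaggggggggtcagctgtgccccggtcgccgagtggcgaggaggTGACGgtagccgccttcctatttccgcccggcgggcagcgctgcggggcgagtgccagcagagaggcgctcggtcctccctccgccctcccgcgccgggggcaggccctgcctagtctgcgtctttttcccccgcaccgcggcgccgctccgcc

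Among 27303 promoters of the same length, searched on both strands, 1.77% held TGACGTCA, 21.7% held the core TGACG (which each full element also contains), 11.1% held TATAAA and 9.57% held the kB motif. AREG had the full element at 65 to 58 bases before its start and the TATA box at 29 to 24. EREG had the core at 125 to 121, the TATA box at 32 to 27 and a TEAD motif (CATTCC, in 11.9% of promoters, not in capitals) at 175 to 170. TGFA had the core at 154 to 150 and the kB match at 219 to 210. The BTC window, not printed, held kB matches at 90 to 81 and at 23 to 14. BTC was not called with TNF-α in HCT116 (mean 1.28 FPKM in NC, 1.36 FPKM at 3 h and 1.39 FPKM at 6 h). The HBEGF window held none of these, nor TGANTCA (AP-1, 6.6% of promoters), TGTTTAC (forkhead, 2.98%) or CCGGAAG (ETS, 8.82%). These matches are descriptions of the letters and not of bound sites. Promoters were found for 9 of the 10 genes, all but ERBB3.

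The untreated lines differed in every one of the 10 genes, among them the ligands AREG and EREG (amphiregulin and epiregulin). The AREG level in the NC libraries was 181, 199 and 191 FPKM (fragments per kilobase of gene, scaled to library size) in HCT116 and 2.08, 1.54 and 1.68 FPKM in HepG2. EREG stood at 179, 196 and 181 FPKM in HCT116 and 0.122, 0.146 and 0.306 FPKM in HepG2. For both genes the HCT116 libraries lay far above all HepG2 libraries, 108-fold by the means for AREG (log2 difference 6.12, SE 0.097, adjusted p = 5.00e-39) and 969-fold for EREG (7.29, SE 0.0921, adjusted p = 1.30e-42). Log2 differences throughout are of log2(FPKM + 1), from limma with Benjamini-Hochberg adjustment over all genes tested, and they understate the change of genes at a few FPKM. A gene was called when its adjusted p was under 0.05.

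The receptor ERBB3, whose ligands are neuregulins, was the reverse, with NC levels of 2.93, 2.79 and 3.05 FPKM in HCT116 and 28.6, 29.3 and 29.8 FPKM in HepG2. Its HCT116 mean was 0.1 of the HepG2 mean (log2 difference -2.95, SE 0.054, adjusted p = 9.29e-37). LRIG1 was also lower in HCT116, at 0.218, 0.129 and 0.178 FPKM against 1.98, 2.23 and 1.91 FPKM. The log2 difference of LRIG1 was -1.37 (adjusted p = 3.85e-20), or -3.56 from the recovered read counts, where nothing is added to the level. TGFA (transforming growth factor alpha) had a mean level of 19 FPKM in HCT116 and 8.2 FPKM in HepG2 (log2 difference 1.12), HBEGF (heparin-binding EGF-like growth factor) 3.65 and 1.77 FPKM (0.75), and ERRFI1 171 and 64.2 FPKM (1.40).

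EGFR itself was low in the table, at 2.16, 2.34 and 2.16 FPKM in HCT116 and 0.689, 0.642 and 0.647 FPKM in HepG2, with no overlap between the lines (log2 difference 0.96, adjusted p = 2.05e-22, and 1.75 from recovered reads). The length behind its FPKM was 51280 bases, whereas its exons in GENCODE 29 span 12521 bases, and over that length the NC level would be 9.1 FPKM in HCT116 and 2.7 FPKM in HepG2. ERRFI1 had 7494 and 4186 bases, and its level over the GENCODE length would be 306 FPKM in HCT116 and 115 FPKM in HepG2. These levels keep all reads counted over the length behind the deposited FPKM, and how many of them lie in the GENCODE exons was not tested. With all reads kept, a change of length leaves ratios of levels between groups as they are. It does change how genes compare with each other, the log2 differences after 1 FPKM is added, and which genes pass a filter of 1 FPKM. EGFR in HepG2 did not pass that filter at its deposited level.

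BTC (betacellulin) had NC levels of 1.17, 1.47 and 1.19 FPKM in HCT116 and was listed at 0 in the NC libraries of HepG2 and in all but 2 of the 27 HepG2 libraries, where it had at most 4 reads. FTH1, a gene that every cell uses, is listed at 0 as well, so a 0 may stand for an estimate that failed, and no fold is given for BTC. Its log2 difference was 1.19 with 1 FPKM added and 9.42 from recovered reads, both of which depend on the amount added to a level of 0. ERBB2 was close in both lines, at 8.55, 8.15 and 9.23 FPKM in HCT116 and 9.74, 9.56 and 9.84 FPKM in HepG2. The HepG2 libraries were all higher (log2 difference -0.15, SE 0.0386, adjusted p = 4.07e-04), but with each library scaled to a common sum the difference was 0.09 (adjusted p = 0.106).

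All 10 genes were thus called between the NC groups, 7 higher and 3 lower in HCT116, where 85.6% of 12992 genes tested were called (42.2% higher, 43.3% lower). The order of the NC levels in HCT116 ran from AREG, EREG and ERRFI1 down through TGFA, ERBB2, HBEGF, ERBB3, EGFR and BTC to LRIG1, with the libraries of AREG and EREG overlapping. The levels over GENCODE lengths given here for both lines again keep all counted reads. Over these lengths ERRFI1 (306 FPKM) would stand above EREG (150 FPKM) and AREG (143 FPKM), and EGFR (9.1 FPKM) above ERBB2 (5.17 FPKM), HBEGF (2.85 FPKM) and ERBB3 (2.07 FPKM). In HepG2 it ran from ERRFI1 and ERBB3 through ERBB2, TGFA, LRIG1, HBEGF and AREG to EGFR, EREG and BTC, with LRIG1, HBEGF and AREG overlapping in part. Over GENCODE lengths TGFA (7.24 FPKM) would stand above ERBB2 (5.81 FPKM), and EGFR (2.7 FPKM) above LRIG1 (1.77 FPKM), HBEGF (1.38 FPKM) and AREG (1.32 FPKM). Of the remaining ligands and receptors, EGF did not exceed 0.0467 FPKM, EPGN 0.243 FPKM, NRG1 0.0834 FPKM, NRG2 0.292 FPKM, NRG4 0.267 FPKM and ERBB4 0.00355 FPKM in any library, and NRG3 was listed at 0 throughout.

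The lines carried the markers of their origin unevenly. HepG2 had 7960 FPKM of ALB and 3420 FPKM of AFP in NC, against 2.82 and 1 FPKM in HCT116. APOA1 (697 FPKM), SERPINA1 (332 FPKM), FGB (241 FPKM), TTR (107 FPKM) and HNF4A (33.5 FPKM) were also found there, against at most 0.781 FPKM in HCT116 NC. The hepatocyte gene APOB was only 0.11 FPKM in HepG2 NC. A second entry, APOB_1, held 26.9 to 53 FPKM in the HepG2 libraries, so the level of 1 entry may not be that of the whole gene. HCT116 held 2.25 FPKM of the intestinal factor CDX2 but was at or near 0 for CDH17, KRT20, VIL1, GPA33, CDX1, LGR5 and FABP1, of which VIL1 (48.8 FPKM), LGR5 (41.1 FPKM) and FABP1 (346 FPKM) were found in HepG2. Leukocyte PTPRC and stromal LUM and COL3A1 were at or near 0 in both, while HepG2 held 1310 FPKM of LYZ and 31.6 FPKM of CD68. Stromal COL1A1 was 0.874 FPKM in HCT116 NC and endothelial PECAM1 0.477 FPKM in HepG2 NC. The NF-kB target NFKBIA went from 9.54 to 168 FPKM in HCT116 and from 79 to 443 FPKM in HepG2 after 3 h of TNF-α. In HepG2 it was also called higher than NC after 3 h of IL-6 (175 FPKM), IL-10 (150 FPKM) and Torin1 (119 FPKM). The STAT3 target SOCS3 went from 0.0836 to 3.58 FPKM in HepG2 after 3 h of IL-6. In HCT116 SOCS3 was not called with 3 h of IL-6 (2.98 FPKM in NC, 3.27 FPKM treated), while STAT3 went from 11.6 to 18.1 FPKM. IL10RA and IL10RB, which encode the receptor for IL-10, did not exceed 0.248 FPKM in any library. Depth was 38.5 to 55.7 M reads on genes per library in HCT116 and 46.3 to 93.7 M in HepG2, and 1 read on a gene of 1 kb was worth at most 0.0244 FPKM.

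In HCT116 the ligands AREG, EREG and HBEGF and the inhibitor ERRFI1 rose against NC after 3 h of each of the 4 treatments. Of 72 tests (9 genes, since LRIG1 was below the filter of 1 FPKM in 3 libraries, by 8 groups) 37 were called, 32 higher and 5 lower, where 36.7% of all genes' tests were called (18.7% higher, 18% lower). At 3 h, 5 of 9 genes were called after IL-6 (31.6% of all genes), 5 of 9 after IL-10 (38.8%), 6 of 9 after TNF-α (41.6%) and 5 of 9 after Torin1 (53.7%). At 6 h the counts were 0 of 9 after IL-6 (16.6%), 2 of 9 after IL-10 (20.5%), 7 of 9 after TNF-α (33.9%) and 7 of 9 after Torin1 (57.2%). The 8 comparisons share the 3 NC libraries and are not independent of each other. In bulk RNA, fewer cells of a kind and less RNA per cell cannot be told apart.

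**Figure D1:**
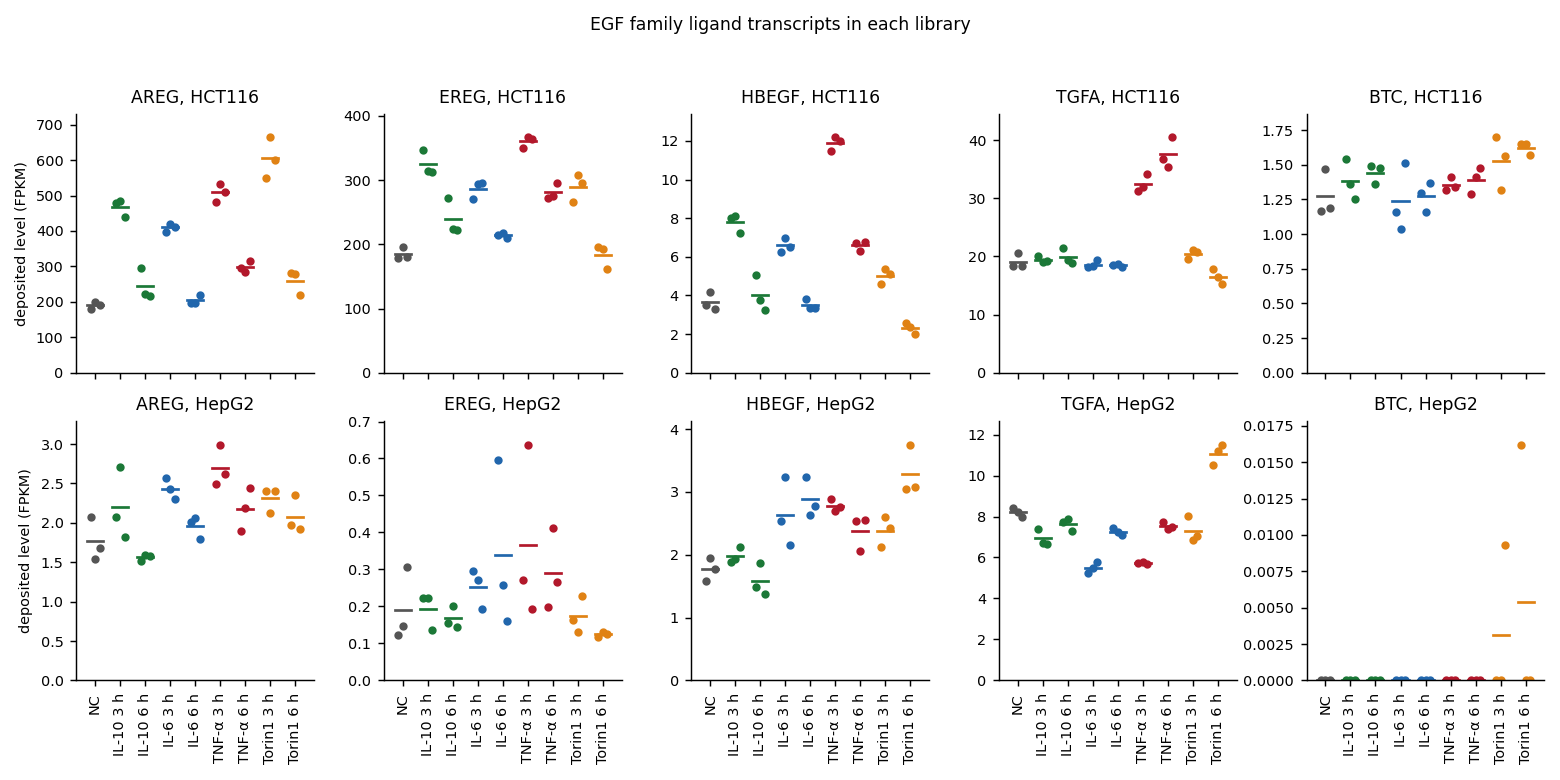
Levels of the 5 ligand genes in FPKM (vertical axes, from 0) in HCT116 (upper row) and HepG2 (lower row) for NC and the 8 treated groups; dots are the 3 libraries of a group and bars their mean. AREG reached 605 FPKM on average after 3 h of Torin1 in HCT116 and stayed under 3 FPKM in every HepG2 library.

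AREG was higher than NC in 7 of the 8 treated groups of HCT116, all but 6 h of IL-6. From 181, 199 and 191 FPKM in NC its level went to 549, 665 and 600 FPKM after 3 h of Torin1 and to 483, 534 and 510 FPKM after 3 h of TNF-α. All treated libraries lay above all NC libraries. The fold of means was 3.17 with Torin1 (log2 difference 1.66, SE 0.101, adjusted p = 2.30e-11) and 2.67 with TNF-α (1.41, adjusted p = 2.91e-10). IL-10 gave 479, 485 and 439 FPKM at 3 h (log2 difference 1.29, adjusted p = 7.03e-09) and IL-6 398, 421 and 411 FPKM (1.10, adjusted p = 8.65e-08). Levels at 6 h were nearer to NC, at 295, 283 and 316 FPKM with TNF-α (log2 difference 0.64, adjusted p = 3.59e-05) and 282, 278 and 219 FPKM with Torin1 (0.44, adjusted p = 8.56e-04). The 6 h IL-10 libraries stood at 296, 221 and 217 FPKM, the first apart from the others (log2 difference 0.34, adjusted p = 0.0196). That call was lost without IL-10 replicate 1 (0.161), NC replicate 1 (0.0716) or NC replicate 3 (0.0507), the values being adjusted p.

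EREG, a neighbour of AREG, rose in the same groups as AREG except 6 h of Torin1. Its level was 179, 196 and 181 FPKM in NC, 350, 367 and 364 FPKM after 3 h of TNF-α and 347, 314 and 312 FPKM after 3 h of IL-10. These groups did not overlap with NC (log2 difference 0.96, SE 0.075, adjusted p = 1.28e-09 with TNF-α and 0.80, adjusted p = 7.74e-08 with IL-10). Torin1 at 3 h gave 266, 308 and 296 FPKM (log2 difference 0.64, adjusted p = 3.05e-07) and IL-6 270, 294 and 295 FPKM (0.63, adjusted p = 2.86e-06). At 6 h EREG was still above NC with TNF-α, at 272, 276 and 296 FPKM (0.60, adjusted p = 1.87e-06), and with IL-10, at 272, 224 and 223 FPKM (0.36, adjusted p = 0.00225). With Torin1 it was 196, 192 and 162 FPKM at 6 h, a range that spans the NC libraries.

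HBEGF, the ligand that also serves as a diphtheria toxin receptor, was highest with TNF-α. Its level in HCT116 was 3.51, 4.16 and 3.29 FPKM in NC and 11.5, 12.2 and 12 FPKM after 3 h of TNF-α. The groups were well apart, 3.26-fold by the means (log2 difference 1.48, SE 0.0958, adjusted p = 5.94e-11). IL-10 at 3 h gave 8.03, 8.11 and 7.23 FPKM (0.92, adjusted p = 3.15e-07), IL-6 6.27, 6.99 and 6.52 FPKM (0.71, adjusted p = 1.20e-05) and Torin1 4.57, 5.38 and 5.1 FPKM (0.37, adjusted p = 0.00243). At 6 h with TNF-α it was still above NC at 6.72, 6.32 and 6.76 FPKM (0.71, adjusted p = 5.19e-06). With 6 h of Torin1 it was below all NC libraries, at 2.59, 2.36 and 1.98 FPKM (log2 difference -0.49, adjusted p = 1.65e-04), so that the sign differed between the hours for this treatment.

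TGFA rose in HCT116 with TNF-α and not detectably with the other cytokines. Its NC level was 18.3, 20.5 and 18.3 FPKM. TNF-α gave 31.2, 32 and 34.1 FPKM at 3 h and 36.7, 35.4 and 40.5 FPKM at 6 h, all above NC (log2 difference 0.74, SE 0.0577, adjusted p = 1.16e-09 and 0.94, adjusted p = 3.28e-11). In the IL-6 and IL-10 groups TGFA stayed between 18.1 and 21.4 FPKM. After 6 h of Torin1 it was 17.9, 16.4 and 15.3 FPKM (-0.19, adjusted p = 0.00725), a call lost without NC replicate 2 (adjusted p = 0.059) or Torin1 replicate 3 (0.0576). BTC had 1.65, 1.65 and 1.57 FPKM in the same group against 1.17, 1.47 and 1.19 FPKM in NC (0.21, adjusted p = 0.0158, and 0.35 from recovered reads). The BTC call was lost without NC replicate 1 (adjusted p = 0.0711) or NC replicate 3 (0.0626).

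**Figure D2:**
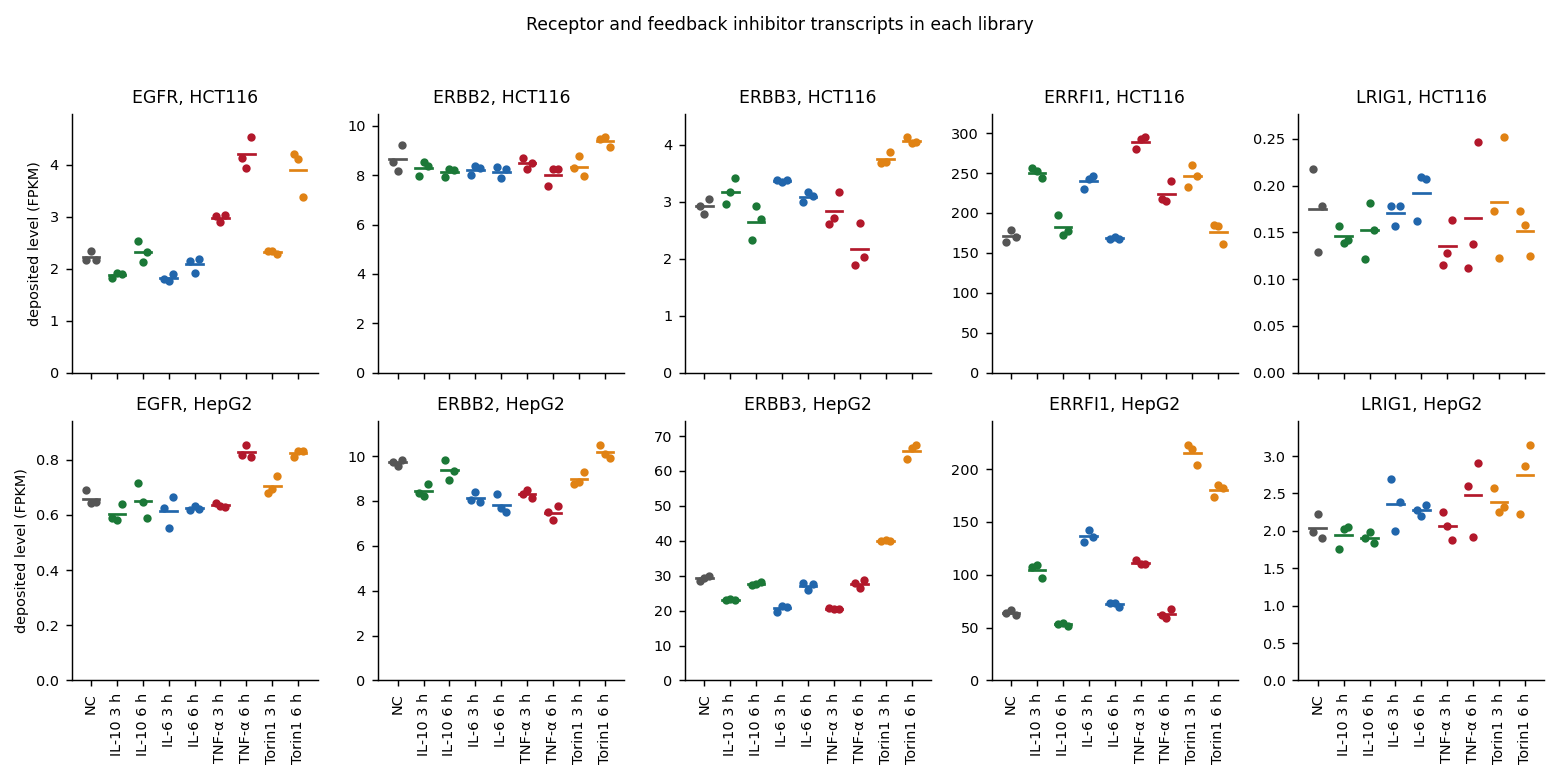
Levels of the 3 receptor and 2 inhibitor genes in FPKM (vertical axes, from 0) in HCT116 (upper row) and HepG2 (lower row); dots are the 3 libraries of a group and bars their mean. ERBB3 in HepG2 was highest after 6 h of Torin1 (65.8 FPKM on average) and ERRFI1 in HepG2 after 3 h of Torin1 (215 FPKM).

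Among the receptors in HCT116, EGFR rose with TNF-α at both hours and with Torin1 at 6 h. From 2.16, 2.34 and 2.16 FPKM in NC it went to 3.02, 2.9 and 3.03 FPKM after 3 h and to 4.12, 3.94 and 4.53 FPKM after 6 h of TNF-α, with no overlap. The log2 differences were 0.31 (SE 0.0563, adjusted p = 1.70e-04) and 0.69 (adjusted p = 3.48e-09). After 6 h of Torin1 the level was 4.2, 4.11 and 3.37 FPKM (0.60, adjusted p = 1.25e-08). The 3 h IL-6 libraries were below NC at 1.81, 1.77 and 1.9 FPKM (-0.19, adjusted p = 0.0144, and -0.28 from recovered reads), and the 3 h IL-10 libraries at 1.82, 1.91 and 1.9 FPKM (-0.16, adjusted p = 0.0261). The IL-6 call was lost without NC replicate 2 (adjusted p = 0.0642), and the IL-10 call without NC replicate 2 (0.104) or IL-10 replicate 1 (0.0899).

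ERBB3 in HCT116 took opposite courses with TNF-α and Torin1. Its level of 2.93, 2.79 and 3.05 FPKM in NC became 3.68, 3.69 and 3.86 FPKM after 3 h and 4.13, 4.03 and 4.05 FPKM after 6 h of Torin1. All of these were above NC (log2 difference 0.27, adjusted p = 0.00197 and 0.37, SE 0.0686, adjusted p = 9.74e-05). After 6 h of TNF-α it was 1.88, 2.63 and 2.02 FPKM, all below NC but with the second library close to it (-0.31, adjusted p = 0.00123). ERBB2 ranged from 7.58 to 9.54 FPKM over the 27 HCT116 libraries. Its 6 h Torin1 libraries (9.48, 9.54 and 9.14 FPKM) overlapped with NC (0.11, adjusted p = 0.0255). Without NC replicate 1 or 2 the adjusted p was 0.0684 or 0.162, without Torin1 replicate 1 or 2 it was 0.0692 or 0.0794, and with libraries scaled to a common sum the difference was 0.04 (adjusted p = 0.525).

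The brake ERRFI1 was among the more abundant of the 10 genes in HCT116 and rose with the ligands. It was at 164, 179 and 170 FPKM in NC and 280, 293 and 295 FPKM after 3 h of TNF-α, with no overlap (1.7-fold, log2 difference 0.76, SE 0.0567, adjusted p = 5.89e-10). IL-10 gave 256, 252 and 244 FPKM at 3 h (0.55, adjusted p = 2.70e-07), Torin1 232, 260 and 246 FPKM (0.52, adjusted p = 1.09e-07) and IL-6 230, 243 and 246 FPKM (0.49, adjusted p = 1.99e-06). The levels of these last 3 groups overlapped with each other. At 6 h TNF-α alone had a called ERRFI1, at 218, 215 and 240 FPKM (0.39, adjusted p = 1.40e-05). LRIG1 ranged from 0.112 to 0.252 FPKM over all 27 HCT116 libraries and was not tested there.

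In HepG2 the inhibitor ERRFI1 was called against NC in 7 of 8 groups, and the ligands HBEGF and TGFA and the receptors ERBB2 and ERBB3 in 6 of 8 each. Of 56 tests against NC (7 genes, EREG, BTC and EGFR being below the filter) 35 were called, 19 higher and 16 lower, where 31% of all genes' tests were called (12.7% higher, 18.3% lower). At 3 h, 6 of 7 genes were called after IL-6 (33.9% of all genes), 4 of 7 after IL-10 (19.1%), 6 of 7 after TNF-α (29.7%) and 6 of 7 after Torin1 (45.5%). At 6 h there were 5 of 7 after IL-6 (19.4%), 1 of 7 after IL-10 (11.7%), 2 of 7 after TNF-α (28.7%) and 5 of 7 after Torin1 (59.9%). These comparisons again share their NC libraries.

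**Figure D3:**
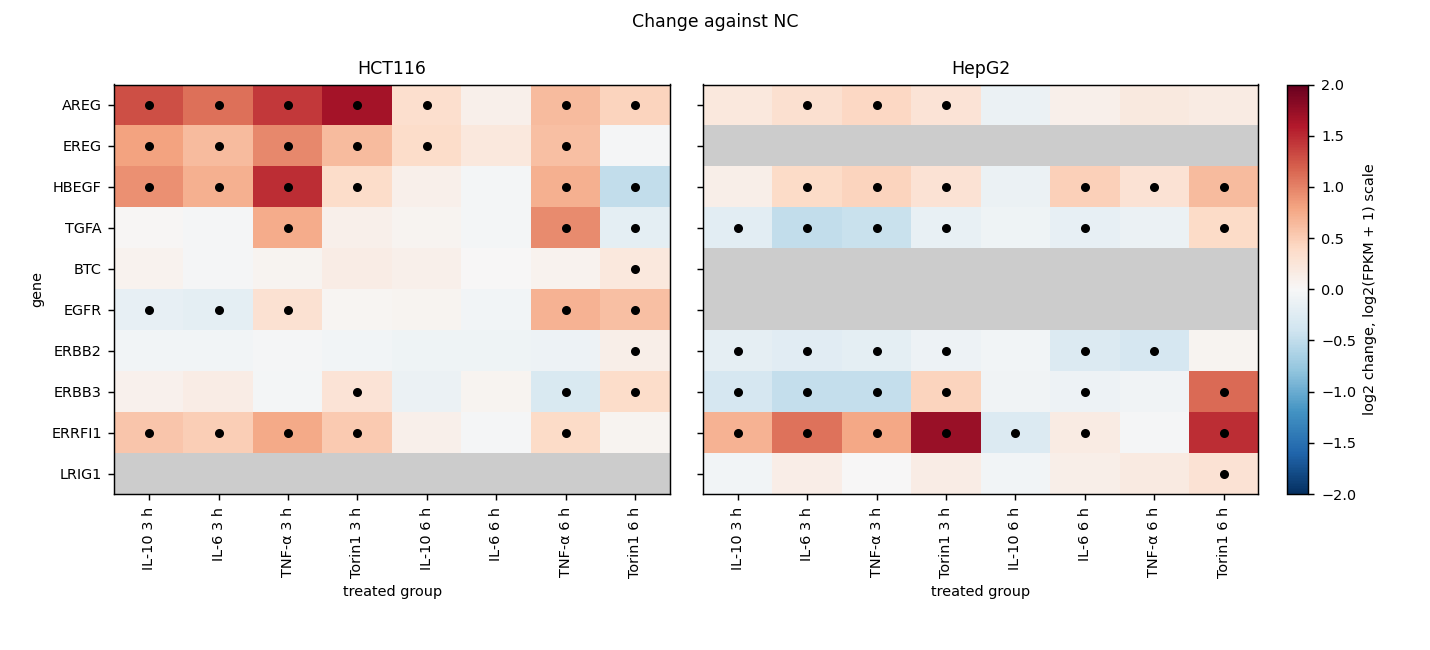
Log2 differences from NC, of log2(FPKM + 1), for the 10 genes (rows) in the 8 treated groups of HCT116 and HepG2 (columns); colour gives size and sign, a black dot an adjusted p under 0.05, and grey a gene not tested. AREG, EREG, HBEGF and ERRFI1 were higher in all 3 h groups of HCT116, and the highest values in HepG2 were those of ERRFI1 with Torin1 (1.73 at 3 h, 1.48 at 6 h).

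ERRFI1 rose in all 3 h groups of HepG2, from an NC level of 64.1, 66.8 and 61.7 FPKM. Torin1 gave 223, 219 and 204 FPKM at 3 h and 174, 185 and 182 FPKM at 6 h, far above NC at both hours. The fold of means was 3.35 at 3 h (log2 difference 1.73, SE 0.05, adjusted p = 2.23e-16) and 2.81 at 6 h (1.48, adjusted p = 1.05e-15). The 3 h levels were 131, 142 and 136 FPKM with IL-6 (1.08, adjusted p = 8.15e-13), 114, 110 and 110 FPKM with TNF-α (0.78, adjusted p = 8.57e-11) and 107, 109 and 97.4 FPKM with IL-10 (0.70, adjusted p = 1.31e-08). By 6 h the IL-10 libraries had fallen below NC, to 53.4, 54.3 and 51.5 FPKM (-0.27, adjusted p = 0.00188). In the order of its 9 group levels, 7 of 8 neighbouring pairs did not overlap, NC and 6 h TNF-α being the pair that did. The 6 h IL-6 level was 73.7, 73.3 and 69.3 FPKM (0.17, adjusted p = 0.0221). This call was lost without NC replicate 1 (0.0586) or 3 (0.104), or IL-6 replicate 1 (0.079) or 2 (0.0778), and with libraries scaled to a common sum (0.0794), all adjusted p.

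ERBB3 fell in HepG2 with the cytokines at 3 h and rose with Torin1. Its NC level was 28.6, 29.3 and 29.8 FPKM, and Torin1 gave 39.8, 40.2 and 39.8 FPKM at 3 h and 63.3, 66.6 and 67.5 FPKM at 6 h. Both groups were above NC and apart from each other, 1.37-fold and 2.25-fold by the means (log2 difference 0.44, adjusted p = 5.21e-10 and 1.14, SE 0.0325, adjusted p = 6.98e-17). At 3 h it was 20.8, 20.4 and 20.6 FPKM with TNF-α (-0.48, adjusted p = 1.80e-10), 19.5, 21.3 and 21.1 FPKM with IL-6 (-0.48, adjusted p = 3.63e-10) and 23, 23.2 and 22.9 FPKM with IL-10 (-0.33, adjusted p = 4.49e-07). At 6 h the cytokine groups lay between 26 and 28.8 FPKM, near NC. With IL-6 the 6 h difference was -0.10 (adjusted p = 0.0262), and it was lost without IL-6 replicate 2 (adjusted p = 0.153), NC replicate 2 (0.0691) or NC replicate 3 (0.104).

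ERBB2, the partner receptor without a ligand, was lower than NC in HepG2 after each cytokine at 3 h. The NC level was 9.74, 9.56 and 9.84 FPKM, and at 3 h it was 8.03, 8.41 and 7.93 FPKM with IL-6 (-0.23, adjusted p = 5.60e-05), 8.32, 8.47 and 8.15 FPKM with TNF-α (-0.20, adjusted p = 2.43e-04) and 8.36, 8.24 and 8.74 FPKM with IL-10 (-0.18, adjusted p = 0.0016). At 6 h the TNF-α libraries were lowest, at 7.49, 7.16 and 7.76 FPKM (0.769-fold, -0.34, adjusted p = 6.21e-07), with IL-6 at 8.3, 7.7 and 7.5 FPKM (-0.28, adjusted p = 1.26e-05). None of these overlapped with NC. The 3 h Torin1 libraries were at 8.75, 8.85 and 9.31 FPKM (-0.10, adjusted p = 0.027), and the call was lost without NC replicate 1 (0.0627) or 3 (0.0807), or Torin1 replicate 1 (0.0984) or 2 (0.0787). EGFR in HepG2 lay between 0.554 and 0.854 FPKM, with 6 h TNF-α (0.817, 0.854 and 0.81 FPKM) and 6 h Torin1 (0.809, 0.831 and 0.831 FPKM) above NC. When genes under the filter were also tested, EGFR differed from NC by 0.14 in both groups (adjusted p = 0.0104 and 0.00424).

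TGFA in HepG2 fell with the cytokines at 3 h, where in HCT116 it rose with TNF-α. Its level was 8.42, 8.21 and 7.98 FPKM in NC, 5.25, 5.48 and 5.77 FPKM after IL-6 (log2 difference -0.50, SE 0.0466, adjusted p = 3.90e-08) and 5.74, 5.77 and 5.69 FPKM after TNF-α (-0.45, adjusted p = 1.64e-07), all below NC. With IL-10 it was 7.39, 6.73 and 6.68 FPKM (-0.21, adjusted p = 0.00259). After 6 h of Torin1 it was above NC, at 10.5, 11.2 and 11.5 FPKM (0.39, adjusted p = 3.54e-07). The 3 h Torin1 libraries (8.03, 6.84 and 7.03 FPKM) overlapped with NC (-0.15, adjusted p = 0.0118), a call lost without Torin1 replicate 2 (adjusted p = 0.0806) or 3 (0.0575). That of 6 h IL-6 (7.45, 7.22 and 7.12 FPKM, -0.16, adjusted p = 0.0222) was lost without IL-6 replicate 2 (0.0638) or 3 (0.0777), or NC replicate 1 (0.0888) or 2 (0.0581).

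The other ligands were at low levels in HepG2. HBEGF was 1.59, 1.95 and 1.78 FPKM in NC and 3.04, 3.75 and 3.08 FPKM after 6 h of Torin1, above all NC libraries (1.86-fold, log2 difference 0.63, SE 0.0964, adjusted p = 9.70e-06). It was also higher with IL-6 at 3 h and 6 h (0.38, adjusted p = 0.00401, or 0.0612 in a fit of only these groups, and 0.48, adjusted p = 0.00103) and with TNF-α at 3 h (0.45, adjusted p = 0.00106). For 6 h of TNF-α the HBEGF difference was 0.29 (adjusted p = 0.0299, and 0.44 from recovered reads), lost without NC replicate 1 (0.119) or 3 (0.0664), or TNF-α replicate 1 (0.103) or 3 (0.107). For 3 h of Torin1 it was 0.29 (adjusted p = 0.0188, and 0.44 from recovered reads), lost without NC replicate 1 (0.0823), Torin1 replicate 2 (0.08) or Torin1 replicate 3 (0.0506).

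AREG, so abundant in HCT116, was 2.08, 1.54 and 1.68 FPKM in HepG2 NC and 2.49, 2.99 and 2.62 FPKM after 3 h of TNF-α, with no overlap (1.53-fold, log2 difference 0.42, adjusted p = 8.49e-04). With IL-6 at 3 h it was 2.57, 2.43 and 2.3 FPKM (0.32, adjusted p = 0.0086), lost without NC replicate 2 (adjusted p = 0.0531). With Torin1 at 3 h it was 2.41, 2.13 and 2.41 FPKM (0.27, adjusted p = 0.0176), lost without NC replicate 2 (0.0952) or 3 (0.0585), or Torin1 replicate 1 (0.0564) or 3 (0.0585). In the order of its 9 group levels every neighbouring pair overlapped. EREG ranged from 0.118 to 0.637 FPKM (29 to 160 reads) in HepG2 and was not tested. LRIG1 was 1.98, 2.23 and 1.91 FPKM in NC and 2.23, 2.86 and 3.15 FPKM after 6 h of Torin1, the lowest of these reaching the highest of NC (0.29, adjusted p = 0.0105), and the call was lost without Torin1 replicate 3 (adjusted p = 0.0749).

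The comparisons with IL-10 at the same hour set each treatment against a group of the same labelled time. In HCT116, 21 of 54 such tests were called, 16 higher and 5 lower, where 30.1% of all genes' tests were called (12.2% higher, 17.9% lower). At 3 h there were 0 of 9 after IL-6 (0.237% of all genes), 4 of 9 after TNF-α (36.5%) and 4 of 9 after Torin1 (44.3%). At 6 h there were 0 of 9 after IL-6 (0.114%), 7 of 9 after TNF-α (42.3%) and 6 of 9 after Torin1 (57.3%). In HepG2, 24 of 42 tests were called, 18 higher and 6 lower, where 33.6% of all genes' tests were (17.6% higher, 16.1% lower). There were 4 of 7 after IL-6 (22.8%), 3 of 7 after TNF-α (16.1%) and 2 of 7 after Torin1 (45.5%) at 3 h, and 3 of 7 (23.6%), 5 of 7 (34.8%) and 7 of 7 (59%) at 6 h. The treatments at one hour share the 3 IL-10 libraries.

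**Figure D4:**
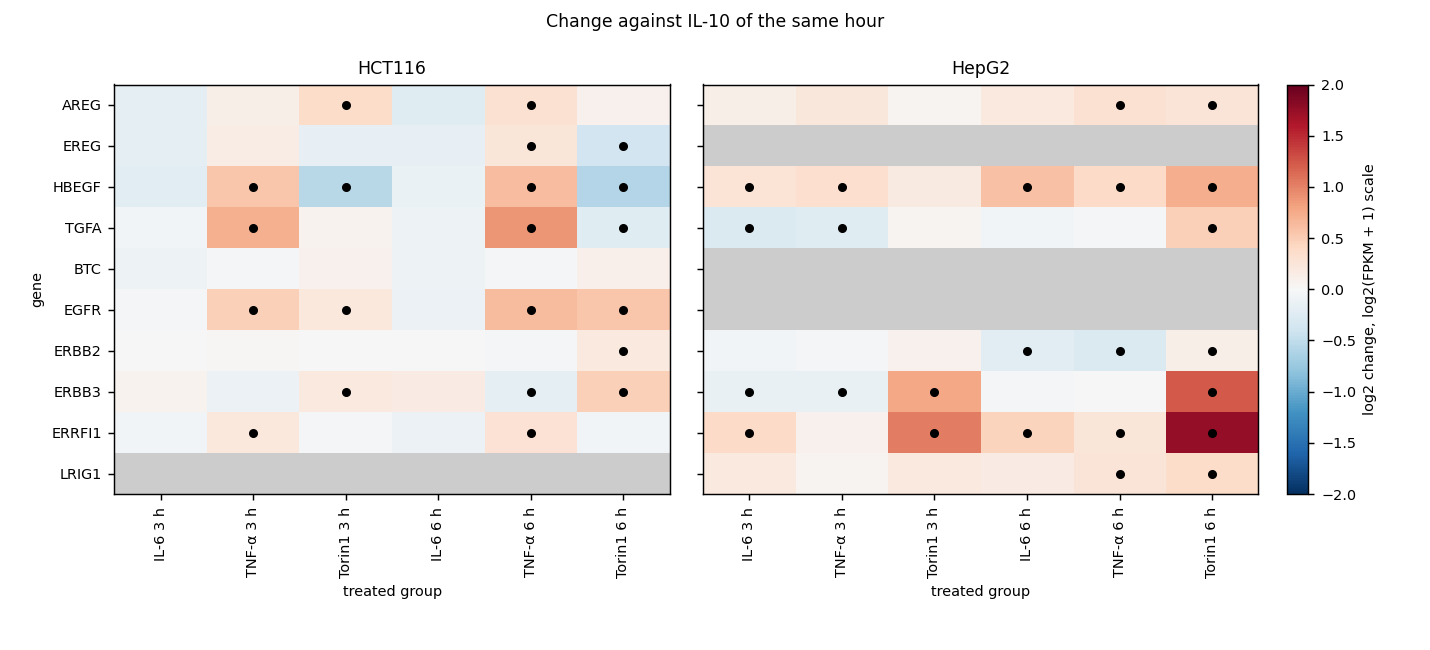
Log2 differences from the IL-10 group of the same hour, of log2(FPKM + 1), for the 10 genes (rows) in the IL-6, TNF-α and Torin1 groups of each line (columns); a black dot marks an adjusted p under 0.05 and grey a gene not tested. The IL-6 columns of HCT116 hold no dot, and ERRFI1 and ERBB3 in HepG2 reach 1.75 and 1.22 after 6 h of Torin1.

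Against IL-10, TNF-α in HCT116 had higher HBEGF (log2 difference 0.56, adjusted p = 1.31e-04 at 3 h and 0.61, adjusted p = 3.31e-05 at 6 h), TGFA (0.71, adjusted p = 4.43e-09 and 0.88, adjusted p = 1.02e-10), EGFR (0.47, adjusted p = 1.79e-06 and 0.64, adjusted p = 1.11e-08) and ERRFI1 (0.21, adjusted p = 0.00661 and 0.29, adjusted p = 2.84e-04). TGFA against IL-10 was 31.2, 32 and 34.1 FPKM against 20, 19 and 19.2 FPKM at 3 h, with no overlap. AREG and EREG in the 6 h TNF-α libraries overlapped with IL-10, whose replicate 1 was high for both. The AREG difference was 0.30 (adjusted p = 0.0221) and the EREG difference 0.24 (adjusted p = 0.0151). Without IL-10 replicate 2 or 3, or TNF-α replicate 3, the adjusted p was 0.112, 0.117 or 0.0889 for AREG and 0.0808, 0.077 or 0.0705 for EREG. ERBB3 also overlapped (-0.20, adjusted p = 0.021), with an adjusted p of 0.122 or 0.0551 without IL-10 replicate 2 or 3 and 0.138 or 0.0896 without TNF-α replicate 1 or 3.

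Torin1 in HCT116 had lower HBEGF than IL-10 at both hours. The HBEGF level was 4.57, 5.38 and 5.1 FPKM against 8.03, 8.11 and 7.23 FPKM at 3 h, and 2.59, 2.36 and 1.98 FPKM against 5.07, 3.78 and 3.26 FPKM at 6 h. Neither pair overlapped (log2 difference -0.55, adjusted p = 8.91e-05 and -0.59, adjusted p = 1.76e-05). EREG (-0.38, adjusted p = 1.56e-04) and TGFA (-0.25, adjusted p = 7.42e-04) were also lower at 6 h, while EGFR (0.55, adjusted p = 3.79e-08), ERBB3 (0.48, adjusted p = 4.25e-06) and ERBB2 (0.19, adjusted p = 4.33e-04) were higher. AREG was higher at 3 h (0.37, adjusted p = 0.0054), as was EGFR (0.21, adjusted p = 0.00485). The 3 h ERBB3 difference of 0.19 (adjusted p = 0.032) was lost without IL-10 replicate 1 (0.137) or 2 (0.0659), or Torin1 replicate 1 (0.0542), 2 (0.0565) or 3 (0.0925).

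In HepG2 after 6 h of Torin1 all 7 genes tested were higher than with IL-10. ERRFI1 was 174, 185 and 182 FPKM against 53.4, 54.3 and 51.5 FPKM (3.4-fold, log2 difference 1.75, SE 0.05, adjusted p = 7.03e-17), and ERBB3 63.3, 66.6 and 67.5 FPKM against 27.4, 27.7 and 28.1 FPKM (2.37-fold, 1.22, SE 0.0325, adjusted p = 1.99e-17). For both genes the Torin1 libraries were far above all IL-10 libraries. HBEGF (0.73, adjusted p = 1.22e-06), TGFA (0.48, adjusted p = 1.61e-08) and LRIG1 (0.36, adjusted p = 0.00273) followed. AREG (0.26, adjusted p = 0.0147, and 0.39 from recovered reads) was lost without Torin1 replicate 2 (0.0849). ERBB2 (0.11, adjusted p = 0.0159) was lost without IL-10 replicate 2 (0.0991) or Torin1 replicate 1 (0.0812). At 3 h, ERRFI1 (1.03, adjusted p = 8.42e-13) and ERBB3 (0.77, adjusted p = 9.36e-14) were called with Torin1.

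IL-6 in HepG2 had higher ERRFI1 than IL-10 at 3 h (0.38, adjusted p = 1.15e-05) and 6 h (0.44, adjusted p = 1.51e-06), and lower TGFA (-0.29, adjusted p = 1.44e-04) and ERBB3 (-0.15, adjusted p = 0.00201) at 3 h. The ERBB3 call was lost in a fit of only these groups (adjusted p = 0.102) and with libraries scaled to a common sum (-0.09, adjusted p = 0.132). HBEGF with 6 h of IL-6 was 3.24, 2.63 and 2.77 FPKM against 1.49, 1.87 and 1.37 FPKM, with no overlap (0.59, adjusted p = 1.18e-04). At 3 h its difference was 0.28 (adjusted p = 0.0444), lost without IL-10 replicate 1 (0.118), 2 (0.101) or 3 (0.0571), or IL-6 replicate 1 (0.061) or 2 (0.242). ERBB2 was lower than with IL-10 after 6 h of IL-6 (-0.23, adjusted p = 1.08e-04) and of TNF-α (-0.29, adjusted p = 3.26e-06). TNF-α had lower TGFA (-0.24, adjusted p = 0.00127) and ERBB3 (-0.15, adjusted p = 0.0023) at 3 h, and higher ERRFI1 (0.24, adjusted p = 7.96e-04) and HBEGF (0.39, adjusted p = 0.00308, and 0.59 from recovered reads) at 6 h.

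Other TNF-α calls against IL-10 in HepG2 were lost when a single library was left out. HBEGF at 3 h (0.34, adjusted p = 0.0183) was lost without IL-10 replicate 1 (0.0584) or 2 (0.053), or TNF-α replicate 1 (0.0604). AREG at 6 h (0.31, adjusted p = 0.00997, and 0.46 from recovered reads) was lost without TNF-α replicate 3 (0.0626). LRIG1 at 6 h was 2.6, 1.92 and 2.91 FPKM and overlapped with IL-10 at 1.91, 1.98 and 1.84 FPKM (0.25, adjusted p = 0.0483), and it was lost without IL-10 replicate 1 (0.0957), 2 (0.0697) or 3 (0.124), or TNF-α replicate 1 (0.141) or 3 (0.259).

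From 3 h to 6 h the ligands AREG, EREG and HBEGF and the inhibitor ERRFI1 fell in HCT116 with each of the 4 treatments. Of 36 tests of 6 h against 3 h, 24 were called, 5 higher and 19 lower, where 26.5% of all genes' tests were called (14.2% higher, 12.3% lower). The counts were 4 of 9 with IL-6 (18.4% of all genes), 6 of 9 with IL-10 (20%), 7 of 9 with TNF-α (37.3%) and 7 of 9 with Torin1 (30.4%). AREG, EREG, HBEGF and ERRFI1 gave 16 of the 19 falls. AREG fell by 1.01 with IL-6 (adjusted p = 4.19e-07), by 0.95 with IL-10 (8.79e-07), by 0.77 with TNF-α (4.89e-06) and by 1.22 with Torin1 (1.45e-08) on the log2 scale. Its 6 h libraries lay below all 3 h libraries of the same treatment in each case. EGFR rose from 3 h to 6 h with TNF-α (0.38, adjusted p = 1.95e-05) and Torin1 (0.55, adjusted p = 2.59e-07). Its IL-10 difference of 0.21 (adjusted p = 0.0104) was lost without the 6 h replicate 1 (0.0682).

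The remaining changes between the hours in HCT116 were smaller. TGFA fell by 0.29 with Torin1 (adjusted p = 5.73e-04) and differed by 0.20 with TNF-α (adjusted p = 0.00842), the latter lost without the 6 h replicate 3 (0.0652). ERBB2 rose by 0.15 with Torin1 (adjusted p = 0.00581). ERBB3 fell by 0.27 with TNF-α (adjusted p = 0.0034), with overlapping libraries, and in a fit of only these groups the adjusted p was 0.0769. Its IL-10 difference of -0.19 (adjusted p = 0.0498) was lost without the 3 h replicate 2 (0.102) or 3 (0.178), the 6 h replicate 1 (0.243) or 3 (0.083).

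In HepG2, 16 of 28 tests of 6 h against 3 h were called, 10 higher and 6 lower, where 25.3% of all genes' tests were called (11.7% higher, 13.6% lower). The counts were 3 of 7 with IL-6 (23.5% of all genes), 4 of 7 with IL-10 (16%), 4 of 7 with TNF-α (25.4%) and 5 of 7 with Torin1 (36.4%). ERRFI1 was lower and ERBB3 higher at 6 h with each of the 4 treatments. ERRFI1 fell by 0.91 with IL-6, by 0.97 with IL-10, by 0.81 with TNF-α and by 0.25 with Torin1 (adjusted p from 2.06e-11 to 4.72e-04). ERBB3 rose by 0.38, 0.26, 0.41 and 0.71 in the same order (adjusted p from 2.07e-12 to 6.19e-06). TGFA rose with IL-6 (0.35, adjusted p = 1.08e-05), TNF-α (0.34, adjusted p = 1.23e-05) and Torin1 (0.54, adjusted p = 1.49e-08), and ERBB2 with Torin1 (0.16, adjusted p = 0.00146).

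Several of the smaller differences between the hours in HepG2 lost their call when 1 library was left out. ERBB2 with IL-10 (0.13, adjusted p = 0.0165) was lost without the 3 h replicate 2 (0.0806) or the 6 h replicate 1 (0.105), and ERBB2 with TNF-α (-0.14, adjusted p = 0.0095) without the 6 h replicate 2 (0.0607). AREG with IL-10 (-0.31, adjusted p = 0.0183) was lost without the 3 h replicate 2 (0.149) or the 6 h replicate 1 (0.0599). HBEGF with Torin1 (0.34, adjusted p = 0.0084) was lost without the 6 h replicate 2 (0.0558).

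The effects of the treatments were then set against each other between the lines, for the 6 genes tested in both (AREG, HBEGF, TGFA, ERBB2, ERBB3 and ERRFI1). Of 48 differences of effects 24 were called, 11 higher and 13 lower in HCT116, where 25.5% of all genes' tests were called (11.3% higher, 14.2% lower). For IL-10 against NC there were 4 of 6 at 3 h (24.4% of all genes) and 2 of 6 at 6 h (16.8%). Against IL-10 there were 3 of 6 with IL-6 (13.5%), 1 of 6 with TNF-α (24.3%) and 3 of 6 with Torin1 (36.4%) at 3 h, and 4 of 6 (12.5%), 3 of 6 (24.9%) and 4 of 6 (51.3%) at 6 h.

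**Figure D5:**
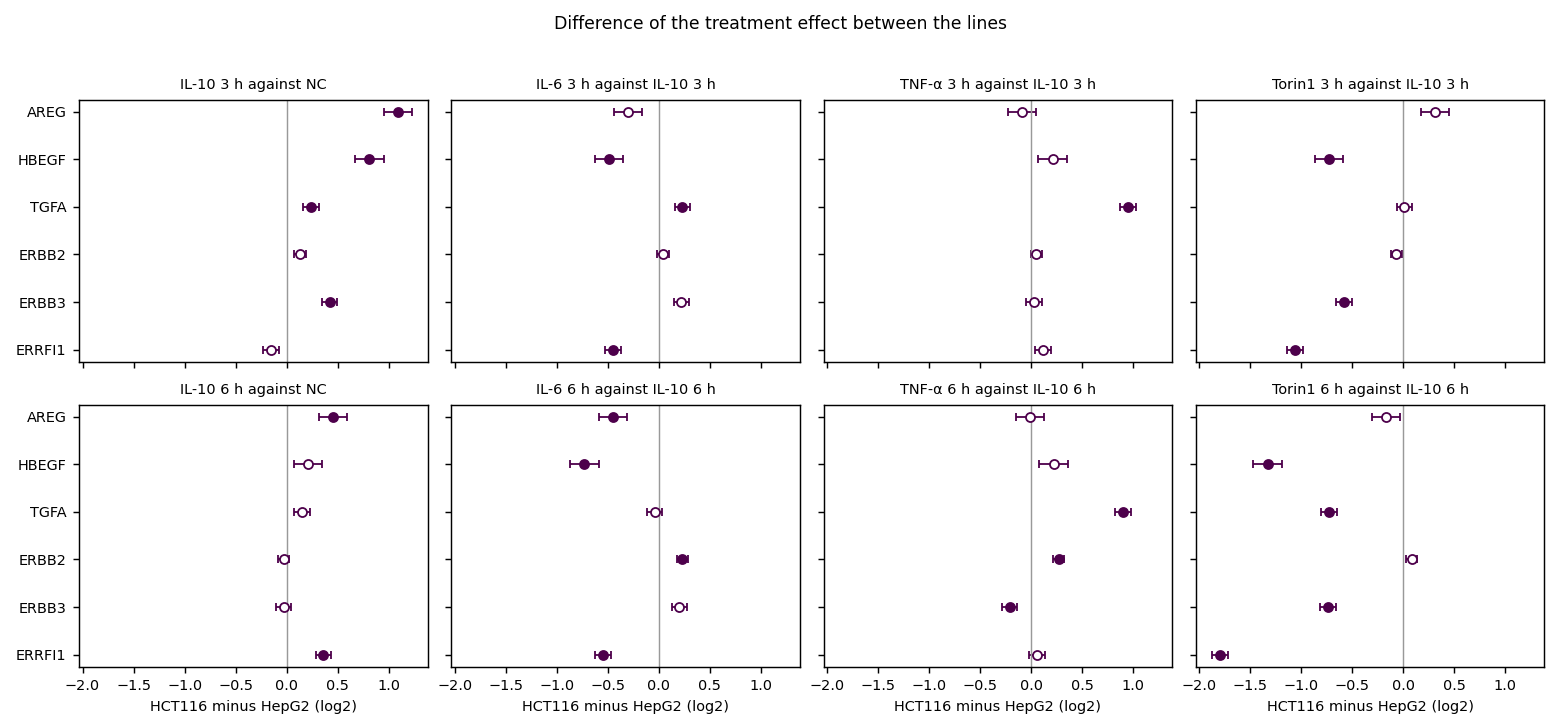
Difference between the lines in each treatment's effect (HCT116 effect minus HepG2 effect, log2 of FPKM + 1; horizontal axes) for 6 genes (rows) in 8 comparisons (panels); points are estimates, bars their SE, and filled points have an adjusted p under 0.05. ERRFI1 after 6 h of Torin1 lies farthest left, at -1.80, and AREG after 3 h of IL-10 farthest right, at 1.09.

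Torin1 gave the widest of these differences. Against IL-10 at 6 h, ERRFI1 differed by -0.05 in HCT116 and by 1.75 in HepG2 (adjusted p of the difference 2.97e-21), and HBEGF by -0.59 and 0.73 (2.19e-10). TGFA moved in opposite directions as well, by -0.25 and 0.48 (1.37e-10), and ERBB3 upward in both, by 0.48 and 1.22 (1.49e-10). At 3 h the ERRFI1 effects were -0.03 and 1.03 (9.78e-14), those of ERBB3 0.19 and 0.77 (1.08e-07) and those of HBEGF -0.55 and 0.18 (7.44e-05). In these sentences the first effect is that of HCT116. With TNF-α the TGFA effects were 0.71 and -0.24 at 3 h (7.58e-13) and 0.88 and -0.02 at 6 h (3.19e-12).

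IL-10 against NC at 3 h moved AREG by 1.29 in HCT116 and 0.21 in HepG2 (adjusted p of the difference 1.89e-07) and HBEGF by 0.92 and 0.11 (3.78e-05). With IL-6 against IL-10, ERRFI1 moved by -0.06 and 0.38 at 3 h (8.82e-05) and by -0.11 and 0.44 at 6 h (2.18e-06). AREG did not differ detectably between the lines in its response to TNF-α over IL-10, at -0.09 (SE 0.137, adjusted p = 0.655) at 3 h and -0.01 (SE 0.137, adjusted p = 0.971) at 6 h. A difference missed by the test does not show that the lines act alike.

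Genes that carry or report the signal were followed as lists, against NC unless stated otherwise. Of 19 tested ERK target genes (22 listed), 13 were higher and 1 lower in HCT116 after 3 h of IL-6 (median log2 difference 0.32, against 0.00 for all genes), 12 and 1 after IL-10 (0.40), 11 and 4 after TNF-α (0.22) and 12 and 3 after Torin1 (0.28). Of all genes, 31.6%, 38.8%, 41.6% and 53.7% were called in either direction in these comparisons, in the same order. In HepG2 at 3 h the counts were 11 and 2 with IL-6 (0.26), 12 and 1 with IL-10 (0.29), 12 and 1 with TNF-α (0.26) and 14 and 3 with Torin1 (0.42), against medians of all genes between -0.04 and -0.01 and shares of all genes called of 33.9%, 19.1%, 29.7% and 45.5%. At 6 h the counts in HCT116 were 3 higher and 0 lower with IL-6 (16.6% of all genes called) and with IL-10 (20.5%), 7 and 3 with TNF-α (33.9%) and 9 and 3 with Torin1 (57.2%). In HepG2 at 6 h they were 4 and 2 with IL-6 (19.4%), 0 and 5 with IL-10 (11.7%), 2 and 3 with TNF-α (28.7%) and 14 and 2 with Torin1 (59.9%). The median with 6 h of Torin1 was 0.15 in HCT116 and 0.38 in HepG2. The largest changes in HCT116 after 3 h of TNF-α were those of PLAUR, the urokinase receptor (3.38, from 8.22 to 95.1 FPKM), DUSP5, a nuclear ERK phosphatase (2.03, from 38.7 to 161 FPKM), and EPHA2 (1.07). In HepG2 after 6 h of Torin1 they were the ERK phosphatase DUSP6 (1.30, from 24.5 to 61.8 FPKM) and the feedback inhibitors SPRY4 (1.25) and SPRY1 (1.11). Against IL-10 at 3 h, ERK targets higher and lower in HCT116 were 0 and 0 with IL-6 (0.237% of all genes called), 6 and 8 with TNF-α (36.5%) and 8 and 5 with Torin1 (44.3%). At 6 h they were 0 and 0 (0.114%), 5 and 3 (42.3%) and 7 and 6 (57.3%). In HepG2 they were 5 and 2 (22.8%), 2 and 4 (16.1%) and 9 and 6 (45.5%) at 3 h. At 6 h in HepG2 they were 6 and 0 (23.6%), 7 and 1 (34.8%) and 12 and 2 (59%).

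FOXO target genes are genes that AKT signalling holds down. With Torin1, of 7 tested in HCT116 (12 listed) 6 were higher and 0 lower at each hour (median 0.52 at 3 h and 0.58 at 6 h), where 53.7% and 57.2% of all genes were called in either direction. Of 11 tested in HepG2, 9 were higher and 1 lower at 3 h (0.71) and 10 and 1 at 6 h (0.82), where 45.5% and 59.9% of all genes were called. The medians of all genes lay between -0.04 and 0.00. CCNG2, a cyclin G, went from 0.787 to 11.3 FPKM in HCT116 (log2 difference 2.78) and from 1.46 to 9.74 FPKM in HepG2 (2.12) at 3 h. With the cytokines at 3 h, 1 or 2 of the 7 were higher in HCT116. There 31.6% of all genes were called in either direction with IL-6, 38.8% with IL-10 and 41.6% with TNF-α. In HepG2 at 3 h, 2 were higher and 2 lower with IL-6 (33.9% of all genes called). With IL-10 the counts were 2 and 4 (19.1%), and with TNF-α 5 and 4 (29.7%). With Torin1, IRS2, an adaptor of the insulin receptor, differed from NC by 1.05 in HCT116 at each hour and by 1.02 in HepG2 at 6 h.

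Among the genes that shed the ligands (5 of 6 tested), 4 were higher and 0 lower in HCT116 after TNF-α at each hour, with medians of 0.10 and 0.19, where 41.6% and 33.9% of all genes were called. At 3 h there the counts were 2 and 1 with IL-6 (31.6%), 3 and 1 with IL-10 (38.8%) and 3 and 1 with Torin1 (53.7%). For TNF-α in HepG2 they were 1 and 1 at 3 h (29.7%) and 3 and 0 at 6 h (28.7%). RHBDF1, a partner of the protease ADAM17, differed by 0.20 and 0.30 in HCT116 and by 0.42 and 0.36 in HepG2 at 3 h and 6 h. ADAM17 itself was 7.6 FPKM in NC in HCT116 and 9.1 FPKM in HepG2. Of the adaptors and degradation genes, 15 of 16 were tested in HCT116 and 14 in HepG2. After 6 h of Torin1, 6 were higher and 5 lower in HCT116 and 7 and 6 in HepG2, with medians of 0.06 and 0.08, where 57.2% and 59.9% of all genes were called in either direction. GRB7, an adaptor whose gene neighbours ERBB2, went from 2.4 to 9.08 FPKM in HCT116 (1.57), and in HepG2 the exchange factor SOS1 went from 15.2 to 30.2 FPKM (0.95) and the ubiquitin ligase CBLB from 1.46 to 3.16 FPKM (0.75).

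The pattern of each gene over the 9 group means of a line was compared with other genes by Pearson's r, as a description, since the means share treatments and libraries. Of 6860 candidate genes in HCT116, those most like AREG were KLF5 (0.989), CCN1 (0.977) and MIR100HG (0.973), and those most like HBEGF were JUN (0.992), ELL2 (0.985) and CDKN1A (0.980). ERRFI1 there was most like CLCF1 (0.992), VMP1 (0.986) and EPHA2 (0.986), and ERBB3 most like ESRP1 (0.990). Of 7169 candidates in HepG2, ERRFI1 was most like MAFG (0.987), JAG1 (0.985) and NR3C1 (0.985), ERBB3 like ARFGAP2 (0.997), PIK3C3 (0.993) and PPARGC1A (0.993), and LRIG1 like SMG1 (0.987). AREG in HepG2 was most like SREBF2 (0.970), and HBEGF most like SMOX (0.968). For AREG, HBEGF and LRIG1 in HepG2 all 8 neighbouring pairs of groups in the order of levels overlapped.

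For each call, the libraries left out in turn were those of the groups compared. Of the 191 calls of these genes in all comparisons, 149 held under every alternative and without each such library, 38 were lost without at least 1 of them, and 32 were lost under at least 1 other alternative.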

How the data were processed

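The authors deposited FPKM values of 50037 rows in 54 libraries, in a single table. Alignment to GRCh38 with HISAT2 and the use of FastQC, StringTie and DESeq2 are named per the submitters' processing notes without versions or roles, and the sources used here do not give the counting tool. Of the table's columns, 48 holding 16 comparisons of the authors without named samples were not used. The Torin1 recovery group that the series text mentions is not analysed here. The FPKM steps gave whole reads for 99.99% of genes above 0 (tolerance 0.01 read), which gave the depths and a voom test as an alternative.

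The main test was limma (3.58.1, in R 4.3.3 with version 1.17.8 of data.table) with a mean-variance trend on log2(FPKM + 1), per line over its 27 libraries with 1 mean per group, for genes at 1 FPKM or more in at least 3 libraries (11395 in HCT116, 11280 in HepG2). P-values were adjusted by Benjamini-Hochberg over all genes tested and called under 0.05. NC lines and differences of effects came from fits of all 54 libraries (12992 and 9683 genes). The scripts were tested on simulated data. Python 3.11.15, numpy 2.4.6, pandas 2.3.3 and matplotlib 3.10.9 made the other tables and figures. Symbols matched RefSeq (GRCh38.p14) for 43732 rows, and GENCODE 29 gave exon lengths.

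The genes and lists were chosen with earlier results of these data known. All 10 genes are named in every comparison where they were called; of each list, at most the 3 called genes with the largest change are named, and for likeness the top 3 of the tested genes with 5 FPKM or more in 1 group. Alternatives were a pseudocount of 0.1, no filter, median-of-ratios scaling, libraries scaled to a common sum, a replicate block, a fit of only the groups compared, voom on recovered reads and leaving out each library. The use of GENCODE lengths was added after the data were seen. Where a difference was not called, an alternative that also did not call it is counted as unchanged whatever its sign.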

Additional observations from a re-analysis of the deposited data

Results flagged for a closer look

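For 24 results the treatment's effect differed between HCT116 and HepG2 in a test of the difference itself (limma, adjusted p under 0.05). Values are HCT116 effect minus HepG2 effect on the log2(FPKM + 1) scale.

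With Torin1 against IL-10 the difference was -1.80 at 6 h and -1.06 at 3 h for ERRFI1, -1.33 and -0.73 for HBEGF, and -0.74 and -0.58 for ERBB3, and at 6 h it was -0.73 for TGFA. With TNF-α against IL-10 it was 0.95 at 3 h and 0.90 at 6 h for TGFA, and at 6 h 0.27 for ERBB2 and -0.21 for ERBB3. The last was called by a small margin (adjusted p = 0.0433) and lost its call without any of 9 libraries, at adjusted p of 0.167 and 0.0754 without HCT116 IL-10 replicates 2 and 3, 0.189 and 0.123 without HCT116 TNF-α replicates 1 and 3, 0.0854, 0.0613 and 0.0558 without HepG2 IL-10 replicates 1, 2 and 3, and 0.076 and 0.112 without HepG2 TNF-α replicates 1 and 3.

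For IL-6 against IL-10 at 3 h the difference was -0.45 for ERRFI1, -0.49 for HBEGF and 0.23 for TGFA. The HBEGF call was lost without HepG2 IL-6 replicate 2 (adjusted p = 0.0635). The TGFA call was lost without HCT116 IL-10 replicate 2 (0.0754) or 3 (0.0674), HCT116 IL-6 replicate 3 (0.0937), HepG2 IL-10 replicate 1 (0.106), or HepG2 IL-6 replicate 1 (0.0834) or 2 (0.0509). At 6 h it was -0.55 for ERRFI1, -0.73 for HBEGF, 0.23 for ERBB2 and -0.45 for AREG. The AREG call was lost without HCT116 IL-10 replicate 1 (0.135), HCT116 IL-6 replicate 1 (0.0559) or 2 (0.0546), or HepG2 IL-6 replicate 2 (0.0579), and was not made by voom on recovered reads (-0.57, adjusted p = 0.373).

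For IL-10 against NC it was 1.09 for AREG, 0.81 for HBEGF, 0.42 for ERBB3 and 0.24 for TGFA at 3 h, and 0.45 for AREG and 0.36 for ERRFI1 at 6 h. The 6 h AREG call was lost without HCT116 IL-10 replicate 1 (0.119), HCT116 NC replicate 1 (0.0524) or HepG2 NC replicate 1 (0.0794), and was not made by voom (0.51, adjusted p = 0.378).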

How the results depend on the processing

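Over 346 tests of the 10 genes, the alternatives that kept all libraries lost between 1 call (pseudocount of 0.1) and 22 calls (a fit of only the groups compared), no filter losing 21, libraries scaled to a common sum 9, median-of-ratios scaling 3 and voom 2. With the common sum the sign of ERBB2 between the NC groups reversed, from -0.15 to 0.09 (adjusted p = 0.106), and 10 calls were gained. With that scaling the median difference of all genes lay between -0.13 and 0.23 in the comparisons. Without each library in turn, the calls ranged from 34 to 38 for HCT116 against NC (37 in the main fit), 18 to 23 against IL-10 (21) and 22 to 24 for 6 h against 3 h (24). In HepG2 they ranged from 30 to 36 (35), 21 to 25 (24) and 14 to 17 (16), and for differences between the lines from 23 to 26 (24).

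Same-numbered libraries did not pair: their deviations correlated at -0.11 to 0.12 in HCT116 and -0.14 to 0.12 in HepG2. The replicate block lost 1 call, LRIG1 in HepG2 with 6 h of TNF-α against IL-10 (adjusted p = 0.0546), and gained 1. BTC and EREG in HepG2 had at most 4 and 160 reads a library, against at least 194 and 36805 in HCT116 (46.3 to 93.7 M and 38.5 to 55.7 M reads on genes), so their values in HepG2 are the less precise.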
